A study of Homo sapiens with 12 samples.

Results

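The 32 genes described here carry cells from acetyl-CoA to cholesterol and to long-chain unsaturated fatty acids, or control that supply. They were picked by gene symbol, not by a rule on measured values, though with earlier results of these data known. All 32 were found among the 25369 genes listed in the count tables and were tested. RNA-seq of poly(A) RNA was performed in 4 stable lines of U2OS, a human osteosarcoma cell line, to ask how methylation of E2F1 on arginine affects gene expression. E2F1 is a transcription factor that drives genes of cell cycle entry. The parental U2OS cells carried the Tet-On system, in which doxycycline switches on a gene placed behind a tetracycline-responsive promoter. The pTRE line held the empty pTRE2-hyg vector, and the other lines held HA-tagged E2F1 in that vector: the WT line the wild-type protein, the R109K line a form with an arginine changed to lysine at the position in its name, and the KK line the R111/113K form, with both named arginines changed to lysine. All 4 lines, pTRE included, were kept in medium with fetal bovine serum, 100 μg/ml G418 and 150 μg/ml hygromycin B and received 1 μg/ml doxycycline for 24 hours, and each was sampled as 3 biological replicates. Each form was therefore seen in 1 line, so that a difference between lines cannot be told apart from a difference between the integrants selected, and whether a line is a clone was not given in the sources used here.

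Cholesterol is built in the mevalonate pathway, which joins acetyl-CoA units into farnesyl diphosphate, and in the sterol branch, which turns farnesyl diphosphate into squalene, lanosterol and cholesterol. Fatty acids are built from the same acetyl-CoA by carboxylation, chain synthesis, elongation and desaturation. Many of these genes answer to the sterol regulatory element-binding proteins (SREBPs), which SCAP escorts out of the endoplasmic reticulum when sterols are low and which the INSIG proteins hold back when sterols are plentiful. The serum in the medium supplies cholesterol, and the genes are active in most growing cells.

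The samples held 11500537 to 31040903 reads on genes. WT replicate 2 was the lowest and stood apart, with 58.7% of its reads outside genes against 23.6% to 29.6% in the other samples, so the WT calls and median are given without it as well. Levels are given in CPM, the reads on a gene scaled to the sample's reads on genes. E2F1, the gene on the constructs, was at 82.9 to 101 CPM in pTRE, at 1469 to 2315 in WT, at 932 to 1283 in R109K and at 1112 to 1478 in KK, so every sample stood on the side its label gives. E2F1 was 0.65 lower on the log2 scale in R109K than in WT (adjusted p = 0.0577). Of 1 list of mesenchymal and bone lineage genes, VIM, SPARC and COL1A1 were at 457 CPM or more in every sample. RUNX2, ALPL and COL1A2, of the same list, were at 7.78 to 18.8, 0.32 to 2.61 and 0 to 0.59 CPM. The labels call the cells epithelial, and KRT8 and KRT18 were at 168 CPM or more, EPCAM at 9.88 to 14.7 and CDH1 at 0.51 to 1.44. Hepatocyte, fat cell and blood markers reached at most 1.14 CPM. In bulk RNA, fewer cells of a kind and less RNA per cell cannot be told apart.

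Most of the lipid synthesis genes were lower in the E2F1 lines than in pTRE, by modest amounts. In WT, 27 of the 32 were lower, with a median log2 fold change of -0.29 (SD over the 3 samples 0.22), against 0.00 over all 16625 genes tested. In KK, 26 were lower and the median was -0.28 (SD 0.08), against -0.01 over all genes. In R109K, 21 were lower and the median was -0.14 (SD 0.09), against 0.00. Over all genes, 8292, 8439 and 8325 of the 16625 were lower in WT, KK and R109K. The 3 comparisons share the same pTRE samples. Each SD covers only the 3 samples of the E2F1 line, and over the 3 pTRE samples the SD of such a median was 0.16. Without pTRE replicate 3, 25 members were lower in WT, 25 in KK and 16 in R109K.

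A gene is called changed here at a Benjamini-Hochberg adjusted p under 0.01 in edgeR's quasi-likelihood test. In WT, 8 members were called (25%), near the 26.2% of all genes called in that comparison. IDI1 rose (3.13% of members, against 14.8% of all genes called higher), and INSIG1, SREBF1, FADS2, SCD, MVK, LSS and ELOVL6 fell (21.9% of members, against 11.4% called lower). No member changed past 2-fold in WT in the main edgeR fit, which 11.8% of all genes did, or by DESeq2. INSIG1, at -0.99, passed it in edgeR with the replicate block (-1.01) or with no filter on low counts (-1.01). So did 4 members without pTRE replicate 2, 4 without WT replicate 3, 2 without pTRE replicate 1 and 1 without WT replicate 1. In KK, 8 members were called as well (25%, against 24.4% of all genes). None rose, against 13.8% of all genes called higher, and SCD, INSIG1, LSS, FADS2, HMGCS1, SREBF1, SREBF2 and ELOVL6 fell (25% of members, against 10.7% called lower). SCD and INSIG1 fell by just over 2-fold in KK, a size that 10.9% of all genes passed, and neither did without pTRE replicate 3 or KK replicate 2. In R109K, 4 members were called (12.5%, against 17.3%). IDI1 rose (10.0% of all genes were called higher) and INSIG1, SREBF1 and SCAP fell (9.38% of members, against 7.23% called lower), and none passed 2-fold, against 7.19%. The number of calls was thus near the background in WT and KK and below it in R109K. The share called lower was above the background in WT and KK, and in R109K it was 9.38% (3 members) against 7.23%.

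**Figure D1:**
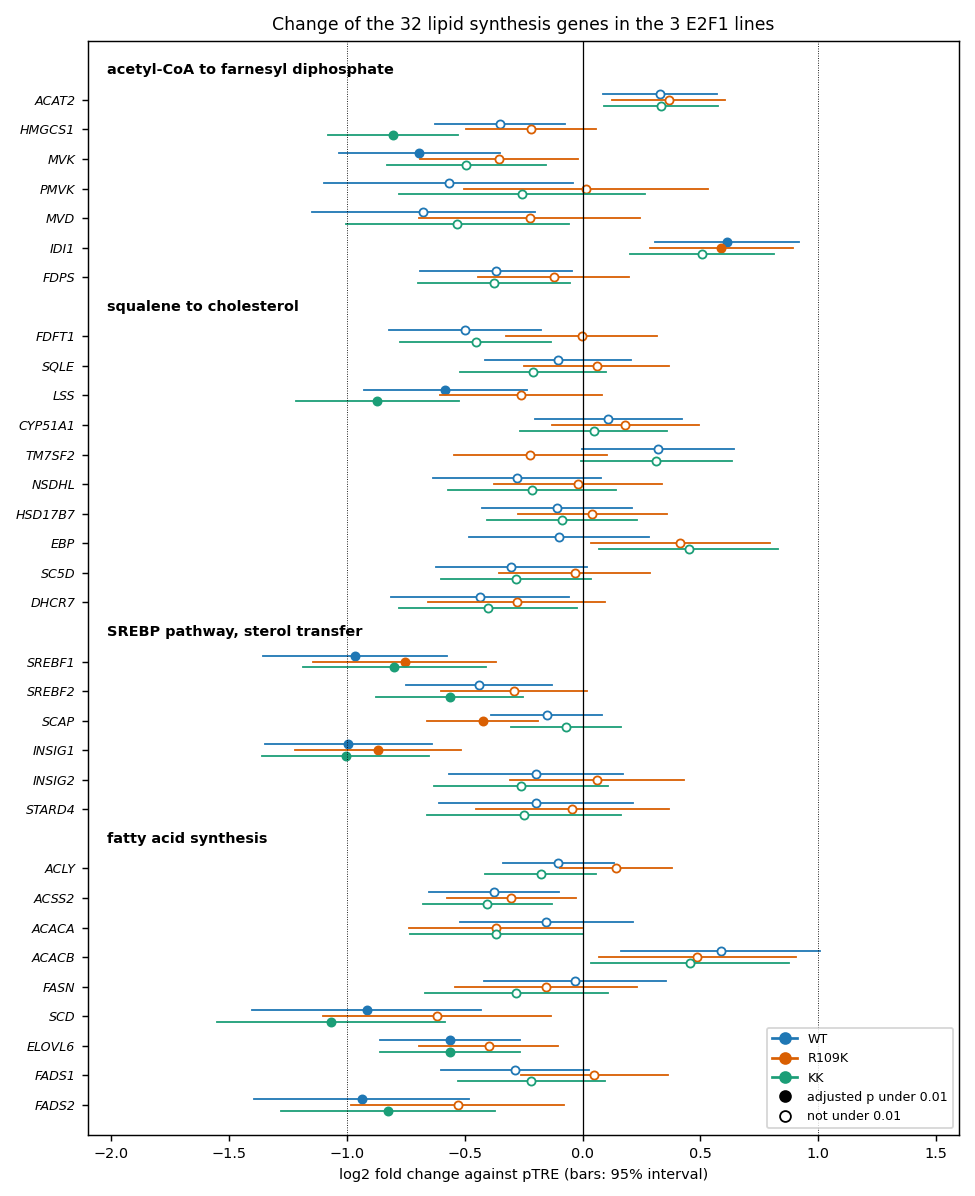
Log2 fold change of each of the 32 genes in WT, R109K and KK against pTRE (horizontal axis, with 95% intervals as bars), grouped by role. Filled points have an adjusted p under 0.01. Points lie mostly left of 0, with INSIG1, SREBF1, SCD and FADS2 farthest left in WT and IDI1 on the right in all 3 lines.

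Replicates of a line differed for many of these genes at once. In pTRE, the median difference from the pTRE mean over the 32 genes was -0.05, -0.13 and 0.19 on the log2 scale in replicates 1, 2 and 3, and the genes summed to 6163, 5999 and 7552 CPM. Replicate 3 was the highest of its line for 25 of the 32 genes in pTRE, 24 in WT, 23 in R109K and 13 in KK. Replicate 2 was the lowest for 21 in pTRE, 24 in WT, 19 in R109K and 21 in KK. Without pTRE replicate 3, 2 members were called in WT (INSIG1 and SREBF1), 3 in KK (HMGCS1, INSIG1 and LSS) and 1 in R109K (INSIG1), where the median log2 fold change became 0.0017, while 19.0%, 18.6% and 12.3% of all genes were called. In WT, 3 members were called without WT replicate 1 (20.0% of all genes) and 5 without pTRE replicate 1 (19.7%). In KK, 4 were called without KK replicate 2 (21.9%) and 5 without KK replicate 1 or 3 (18.1% and 18.7%). In R109K, 1 was called without any one of its own replicates (10.8% to 12.7%) and 2 without pTRE replicate 1 or 2 (12.4% and 11.8%). Without WT replicate 2, 5 were called in WT (ACAT2 and IDI1 higher, FADS2, INSIG1 and SREBF1 lower, with 24.2% of all genes called), 26 of the 32 were lower and the median was -0.22.

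**Figure D2:**
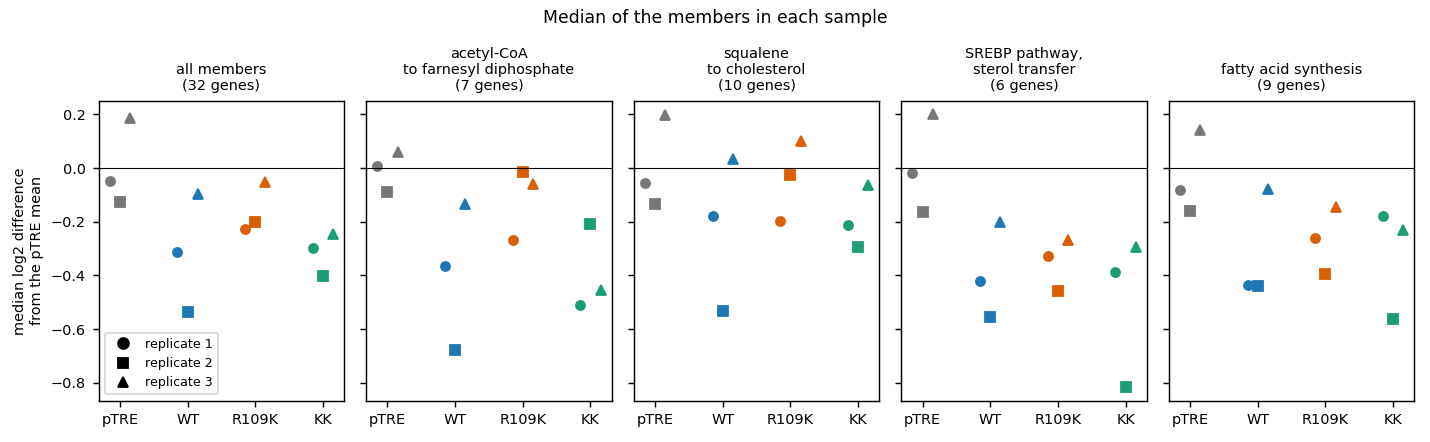
Median over the members of each sample's log2 CPM minus the pTRE mean (vertical axis), for all 32 genes and for each role, 1 point per sample. All 3 KK samples lie below all 3 pTRE samples for the 32 genes together (-0.25 or lower against -0.13 or higher), and WT replicate 3 at -0.10 and R109K replicate 3 at -0.05 lie within the pTRE range.

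In the SREBP pathway, INSIG1 and SREBF1 fell in all 3 lines, SREBF2 in KK and SCAP in R109K. INSIG1 (chr7:155089486-155101945, plus strand, GRCh37), the sterol-sensing retention protein that is itself an SREBP target, was at 99.2, 84.7 and 112 CPM in pTRE replicates 1, 2 and 3. It was at 52.1, 36.6 and 59.3 CPM in WT, 51.8, 48.0 and 62.6 in R109K, and 50.1, 44.1 and 53.3 in KK. All 9 samples of the E2F1 lines lay below all 3 pTRE samples. INSIG1 fell by 0.99 (SE 0.17, adjusted p = 2.5e-04) in WT, by 1.01 (SE 0.17, adjusted p = 2.3e-04) in KK and by 0.87 (SE 0.17, adjusted p = 0.00109) in R109K on the log2 scale. It was called in each line whichever library was left out. Its paralog INSIG2, which serves the same retention step, was not called, with log2 fold changes of -0.20 in WT, -0.26 in KK and 0.06 in R109K.

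SREBF1 (chr17:17713713-17740316, minus strand, GRCh37) encodes the SREBP best known for fatty acid synthesis. It was at 274, 234 and 358 CPM in pTRE, 138, 133 and 173 in WT, 184, 138 and 192 in R109K, and 197, 137 and 163 in KK. Every pTRE sample was above every sample of the E2F1 lines. SREBF1 fell by 0.97 (SE 0.18, adjusted p = 6.8e-04) in WT, 1.95-fold. It fell by 0.80 (SE 0.18, adjusted p = 0.00289) in KK and by 0.75 (SE 0.18, adjusted p = 0.00579) in R109K. The WT call held whichever library was left out. The KK call was lost without pTRE replicate 3, KK replicate 2 or KK replicate 3 (adjusted p 0.0127 to 0.0220), and the R109K call without pTRE replicate 1 or 3 or any of its own replicates (0.0106 to 0.0408). RAI1 lies on the opposite strand and overlaps its end by 1055 bases in GENCODE v44lift37, and it was at 75.0 CPM in pTRE and 54.9 in WT. Whether counting used strand is not given in the sources used here, so reads of overlapping genes cannot be told apart, for this pair or those named below.

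SREBF2 (chr22:42229109-42303310, plus strand, GRCh37) encodes the SREBP best known for cholesterol synthesis. It was at 254, 261 and 338 CPM in pTRE, 183, 209 and 236 in WT, 236, 204 and 257 in R109K, and 204, 169 and 203 in KK. The WT and KK samples lay below all pTRE samples, and R109K replicate 3 lay inside the pTRE range. SREBF2 fell in KK, by 0.56 (SE 0.15, adjusted p = 0.00677), and was not called in WT (-0.44, adjusted p = 0.0257) or R109K (-0.29, adjusted p = 0.154). The KK call was lost without pTRE replicate 2 or 3 or any KK replicate (adjusted p 0.0116 to 0.0439). SCAP, the escort of both SREBPs, fell in R109K by 0.42 (SE 0.11, adjusted p = 0.00953), from 140, 146 and 176 CPM in pTRE to 117, 112 and 116, with no overlap. That call was lost without pTRE replicate 2 or 3 or any R109K replicate (adjusted p 0.0202 to 0.0514), and with the replicate block (0.0107), RLE scaling (0.0106) or no filter on low counts (0.0230). SCAP had log2 fold changes of -0.15 in WT and -0.07 in KK, where the samples overlapped those of pTRE and where KK went to 0.036 without pTRE replicate 3. STARD4, which carries sterol between membranes, was at -0.20, -0.25 and -0.04 in WT, KK and R109K and was not called.

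**Figure D3:**
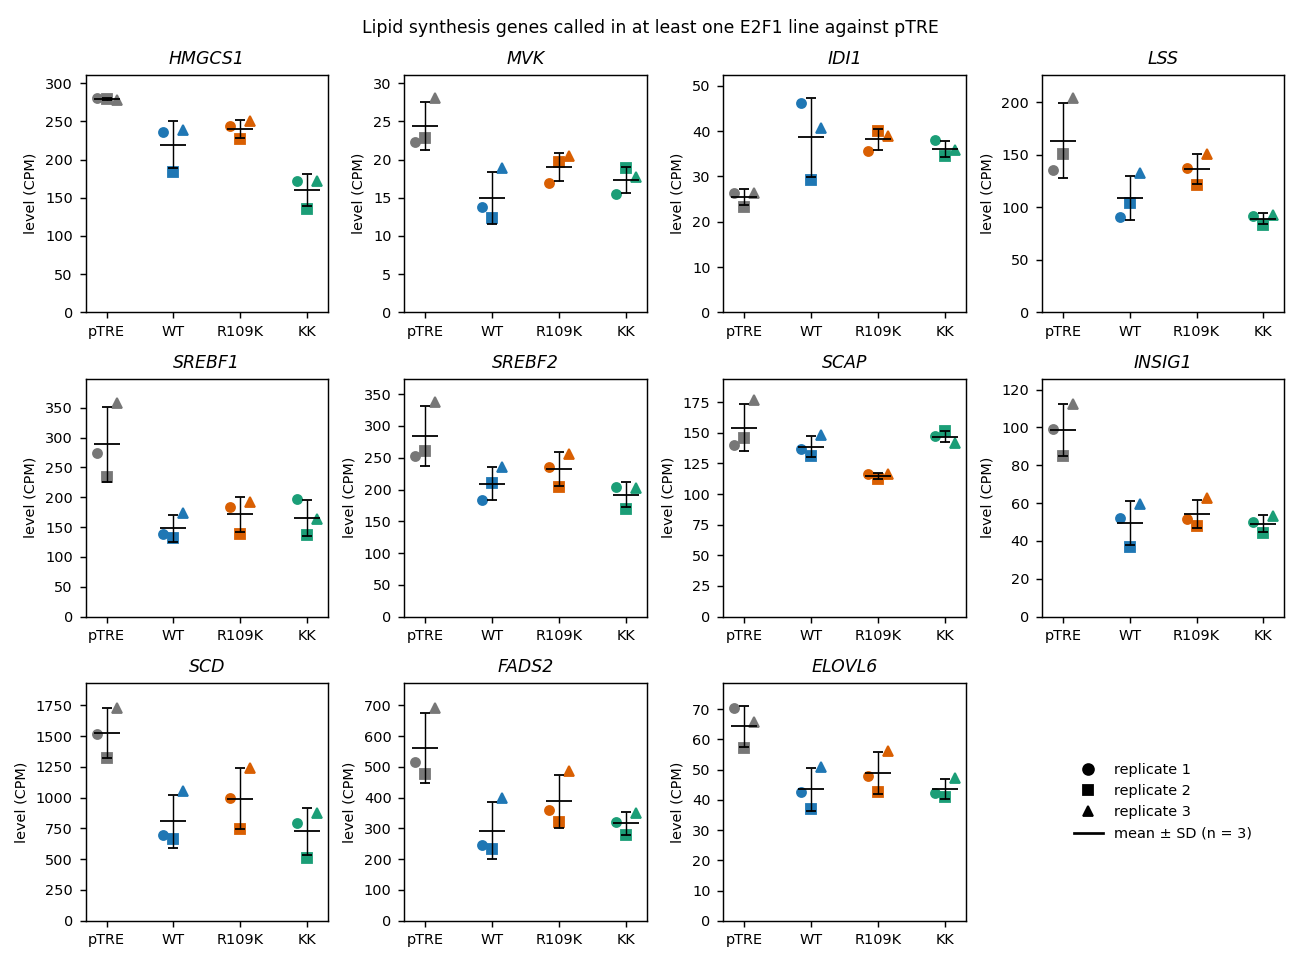
Level in CPM (vertical axis, from 0) of the 11 genes called against pTRE in at least 1 line, 1 point per replicate, with the mean and SD (n = 3). HMGCS1, MVK, SREBF1, INSIG1, SCD and ELOVL6 are higher in every pTRE sample than in any other sample. IDI1 is lower in every pTRE sample than in any other.

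Promoter windows (250 bases before to 50 after a start site, RefSeq, GRCh38.p14) were read for 28 of the 32 genes, 40 windows in all. Those of INSIG1 and SCD, the genes past 2-fold, are shown with those of SREBF2, an SREBP gene, and MVK, which carries E2F letters. The last pair was chosen after the values were seen. They are INSIG1 at chr7:155297628-155297927, SCD at chr10:100346983-100347282, SREBF2 at chr22:41832855-41833154 and MVK at chr12:109573544-109573843, all on the plus strand. Capitals mark matches to the motifs searched on both strands, none of which overlap in these windows.
INSIG1: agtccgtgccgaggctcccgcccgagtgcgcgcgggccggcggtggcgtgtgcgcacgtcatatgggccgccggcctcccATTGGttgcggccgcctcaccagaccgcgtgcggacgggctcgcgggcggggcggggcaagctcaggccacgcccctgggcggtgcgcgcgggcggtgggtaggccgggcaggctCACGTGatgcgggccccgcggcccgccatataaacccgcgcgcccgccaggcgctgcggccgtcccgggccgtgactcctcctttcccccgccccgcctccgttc
SCD: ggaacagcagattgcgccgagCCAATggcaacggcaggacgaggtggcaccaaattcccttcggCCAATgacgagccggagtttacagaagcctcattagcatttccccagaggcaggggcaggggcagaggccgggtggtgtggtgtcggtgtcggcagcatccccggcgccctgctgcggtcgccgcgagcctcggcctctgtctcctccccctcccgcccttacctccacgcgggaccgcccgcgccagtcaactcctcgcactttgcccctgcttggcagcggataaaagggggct
SREBF2: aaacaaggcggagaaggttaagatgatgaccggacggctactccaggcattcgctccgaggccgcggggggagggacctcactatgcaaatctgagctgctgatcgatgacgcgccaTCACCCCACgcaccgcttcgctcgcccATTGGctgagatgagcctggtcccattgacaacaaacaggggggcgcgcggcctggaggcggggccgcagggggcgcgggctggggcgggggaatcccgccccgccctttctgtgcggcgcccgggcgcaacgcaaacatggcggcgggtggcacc
MVK: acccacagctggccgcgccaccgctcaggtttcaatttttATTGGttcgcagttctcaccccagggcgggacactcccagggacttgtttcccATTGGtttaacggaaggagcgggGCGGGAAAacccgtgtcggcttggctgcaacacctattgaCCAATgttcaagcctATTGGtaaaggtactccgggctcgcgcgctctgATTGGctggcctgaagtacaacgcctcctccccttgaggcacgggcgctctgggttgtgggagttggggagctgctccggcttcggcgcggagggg
The motifs were the E2F consensus (TTTCCCGC, TTTCGCGC, TTTGCCGC or TTTGGCGC), the sterol regulatory element (TCACNCCAC), the E-box CACGTG, which reads the same on both strands, and the CCAAT box, the letters bound by NF-Y, a common partner of SREBPs. In INSIG1 the E-box starts 55 bases before the start site and a CCAAT box 170 bases before it. In SCD, CCAAT boxes start 229 and 186 bases before it. In SREBF2 the sterol regulatory element starts 133 bases and a CCAAT box 106 bases before it. In MVK the E2F letters start 134 bases before it, among 5 CCAAT boxes. The CCAAT box stood in 25 of the 40 member windows (62.5%), against 34.6% of all 35116 windows. The E2F letters stood in 4 of the 40 member windows (10.0%, against 3.31% of all windows), those of ACACA, INSIG2 and MVK, and 2 of these 3 genes were not called in any line. The sterol element stood in 1 member window, of SREBF2 (2.5%, against 1.13%), and the E-box in 5, of INSIG1, LSS, SC5D and SCAP (12.5%, against 7.26%). None of these letters stood in the SREBF1 window. A match is a description of letters, and the absence of one covers only these 300 bases.

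In the mevalonate pathway, HMGCS1 fell in KK, MVK fell in WT and IDI1 rose in WT and R109K. HMGCS1 (chr5:43287572-43313614, minus strand, GRCh37) makes HMG-CoA. It was at 281, 279.6 and 278 CPM in pTRE, 236, 184 and 238 in WT, 244, 227 and 250.0 in R109K, and 172, 135 and 172 in KK. The pTRE samples were the highest and close together, and the KK samples were the lowest. HMGCS1 fell by 0.81 (SE 0.13, adjusted p = 1.8e-04) in KK, and this call held whichever library was left out. It was not called in WT (-0.35, adjusted p = 0.0421) or in R109K (-0.22, adjusted p = 0.235).

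MVK (chr12:110011060-110035930, plus strand, GRCh37) encodes mevalonate kinase. It was at 22.3, 22.8 and 28.0 CPM in pTRE, 13.8, 12.3 and 18.8 in WT, 17.0, 19.7 and 20.5 in R109K, and 15.5, 18.9 and 17.6 in KK. All pTRE samples were above all others. MVK fell by 0.69 (SE 0.16, adjusted p = 0.00311) in WT, and was at -0.49 in KK (adjusted p = 0.0238) and -0.36 in R109K (adjusted p = 0.110). The WT call was lost without pTRE replicate 3, WT replicate 1 or WT replicate 2 (adjusted p 0.0103 to 0.0195). MMAB, read from the opposite strand, overlaps it by 326 bases and was at 28.7 CPM in pTRE and 19.5 in WT.

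IDI1 (chr10:1085092-1095059, minus strand, GRCh37), the isomerase that makes dimethylallyl diphosphate, rose where most members were lower. It was the only member called higher by edgeR with all 12 samples. It was at 26.4, 23.3 and 26.4 CPM in pTRE, 46.3, 29.1 and 40.7 in WT, 35.6, 40.2 and 38.9 in R109K, and 38.0, 34.5 and 35.9 in KK. All 9 samples of the E2F1 lines were above all pTRE samples. IDI1 rose by 0.61 (SE 0.14, adjusted p = 0.00326) in WT and by 0.59 (SE 0.14, adjusted p = 0.00600) in R109K. In KK it was at 0.51 (SE 0.14, adjusted p = 0.0115). DESeq2 called it there (adjusted p = 0.00352). So did edgeR with at least 10 counts in every sample (0.00844) and with only the 6 samples compared (0.00378). The WT call was lost without any pTRE replicate or WT replicate 1 or 3 (adjusted p 0.0110 to 0.0261), and the R109K call whichever of the 6 libraries compared was left out (0.0146 to 0.0377). IDI2-AS1, on the opposite strand over 6274 bases of it, was at under 1 CPM on average in every line. ACAT2, which joins acetyl-CoA units at the first step, was higher in all 3 lines but not called by edgeR with all 12 samples. It was at 0.33 in WT, 0.33 in KK and 0.37 in R109K (adjusted p 0.0239 to 0.0306). DESeq2 called ACAT2 in R109K (adjusted p = 0.00911), and edgeR called it in WT without WT replicate 2 (0.00533). MVD is the decarboxylase, PMVK is phosphomevalonate kinase, and FDPS makes farnesyl diphosphate. They were at -0.68, -0.57 and -0.37 in WT, -0.53, -0.26 and -0.38 in KK, and -0.22, 0.01 and -0.12 in R109K. None was called with all 12 samples, and MVD was called in WT without WT replicate 3 (adjusted p = 0.00209).

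In the sterol branch, 1 of 10 genes was called in WT and in KK (10%, against 26.2% and 24.4% of all genes) and none in R109K (against 17.3%). LSS (chr21:47608055-47648738, minus strand, GRCh37), which folds oxidosqualene into lanosterol, was at 136, 151 and 204 CPM in pTRE, 91.1, 104 and 132 in WT, 138, 121 and 150.3 in R109K, and 92.2, 83.0 and 92.7 in KK. The WT and KK samples lay below all pTRE samples, while R109K overlapped them. LSS fell by 0.87 (SE 0.16, adjusted p = 6.3e-04) in KK and by 0.58 (SE 0.16, adjusted p = 0.009997) in WT, and was at -0.26 (adjusted p = 0.258) in R109K. The KK call held whichever library was left out. The WT call sat at the threshold and was lost without pTRE replicate 2 or 3 or WT replicate 1 or 2 (adjusted p 0.0169 to 0.0664).

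The other 9 sterol genes were not called by edgeR with all 12 samples. FDFT1, which makes squalene, was at -0.50 in WT and -0.45 in KK and at 0.00 in R109K. It was called in WT by DESeq2 and by edgeR without WT replicate 3. In KK it was called with only the 6 samples compared (adjusted p = 0.00992 in edgeR). SQLE, which oxidises squalene, was at -0.10, -0.21 and 0.06 in WT, KK and R109K. CYP51A1, NSDHL, HSD17B7 and SC5D, of demethylation and ring desaturation, ranged from -0.30 to 0.18. HSD17B7 has a near-identical pseudogene, HSD17B7P2, that may share its reads. DHCR7, a late sterol reductase, was at -0.44, -0.40 and -0.28. EBP, the sterol isomerase, was at -0.10 in WT and at 0.45 in KK and 0.42 in R109K (adjusted p 0.677, 0.0606 and 0.0981). TM7SF2, a sterol reductase, was at 7.31, 7.71 and 9.73 CPM in pTRE, 10.2, 11.6 and 9.25 in WT, 9.41, 11.6 and 9.83 in KK, and 6.97, 7.05 and 7.25 in R109K. Its R109K samples lay below every other sample.

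In fatty acid synthesis, SCD, FADS2 and ELOVL6 fell in WT and KK, and the other 6 genes were not called. That is 33.3% of the 9 genes in each of these lines, against 26.2% and 24.4% of all genes, and none in R109K, against 17.3%. SCD (chr10:102106990-102124583, plus strand, GRCh37), which makes oleate and palmitoleate, was at 1517, 1323 and 1728 CPM in pTRE, 700.4, 667 and 1051 in WT, 994, 742 and 1240.2 in R109K, and 797, 510 and 872 in KK. Every pTRE sample was above every other sample. SCD fell by 1.07 (SE 0.23, adjusted p = 0.00178) in KK, 2.10-fold, and by 0.92 (SE 0.23, adjusted p = 0.00490) in WT. It was at -0.62 (SE 0.23, adjusted p = 0.0537) in R109K, and was called there with the replicate block (adjusted p = 0.00320) and with only the 6 samples compared (0.00163). The KK call was lost without pTRE replicate 3 (adjusted p = 0.0119), and the WT call without pTRE replicate 1 or 3 or WT replicate 1 or 2 (0.0144 to 0.0272).

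FADS2 (chr11:61560452-61634826, plus strand, GRCh37) is the desaturase that starts the conversion of essential fatty acids to longer polyunsaturated ones. It was at 515, 476 and 691 CPM in pTRE, 246, 232 and 399 in WT, 359, 320.1 and 486 in R109K, and 321, 277 and 352 in KK. WT and KK lay below all pTRE samples, and R109K replicate 3 lay inside the pTRE range. FADS2 fell by 0.94 (SE 0.21, adjusted p = 0.00279) in WT and by 0.82 (SE 0.21, adjusted p = 0.00677) in KK, and was at -0.53 (adjusted p = 0.0768) in R109K, where the same alternatives called it (adjusted p 0.00536 and 0.00622). The WT call was lost without pTRE replicate 3 or WT replicate 1 (adjusted p 0.0156 and 0.0209), and the KK call without pTRE replicate 1 or 3 or any KK replicate (0.0132 to 0.0459). FADS1, the next desaturase, is read from the opposite strand and overlaps FADS2 by 29692 bases in GENCODE v44lift37. It was at -0.29, -0.22 and 0.05 in WT, KK and R109K and was not called.

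ELOVL6, which lengthens palmitate to stearate, was at 70.3, 57.0 and 65.9 CPM in pTRE, 42.6, 36.9 and 51.0 in WT, 47.9, 42.6 and 56.1 in R109K, and 42.3, 41.0 and 47.4 in KK. All pTRE samples were above all others. ELOVL6 fell by 0.56 (SE 0.14) in both WT (adjusted p = 0.00499) and KK (adjusted p = 0.00507), and was at -0.40 (adjusted p = 0.0436) in R109K. Both calls were lost without pTRE replicate 1 or 3 or replicate 1 or 2 of the line itself (adjusted p 0.0176 to 0.0271).

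FASN, the chain-building synthase, was at 637, 802 and 1046 CPM in pTRE, 673, 972 and 787 in WT, 794, 617 and 821 in R109K, and 737, 608 and 702 in KK. The lines overlapped, and FASN was not called, with log2 fold changes of -0.03, -0.28 and -0.16 for WT, KK and R109K. ACLY and ACSS2, which supply acetyl-CoA from citrate and acetate, were at -0.10 and -0.38 in WT, -0.18 and -0.40 in KK, and 0.14 and -0.30 in R109K. ACACA, the carboxylase that makes malonyl-CoA for synthesis, was at -0.15, -0.37 and -0.37. ACACB, its mitochondrial counterpart, was higher in all 3 lines at 0.59, 0.46 and 0.49 (adjusted p 0.0286, 0.0836 and 0.0783), from 7.07 CPM in pTRE. These genes were not called with all 12 samples, and ACACB was called in WT without WT replicate 1 (adjusted p = 0.00703).

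Samples of WT and pTRE did not overlap for 15 of the 32 genes, against 51.5% of all genes. The count was 20 in KK, against 49.4%, and 13 in R109K, against 47.2%. Only the KK count, at 20 of 32, was above the background.

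Per kilobase of the canonical transcript, the desaturases SCD and FADS2 led in pTRE, while the desaturase FADS1 was at rank 9, with 74.4 CPM per kb. SCD was highest at 290.3 CPM per kb (SD 38.6, n = 3) and FADS2 followed at 181 (SD 37.0). FDPS, FASN, FDFT1 and ACLY stood at 95.9 to 98.1 with SDs of 5.15 to 24.3, so their order does not exceed their spread. INSIG1, at 34.0 (SD 4.76), was in the middle, at rank 17 of 32. ACACB was lowest at 0.76. SCD was the highest member in each line, at 154 CPM per kb in WT, 189 in R109K and 138 in KK.

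**Figure D4:**
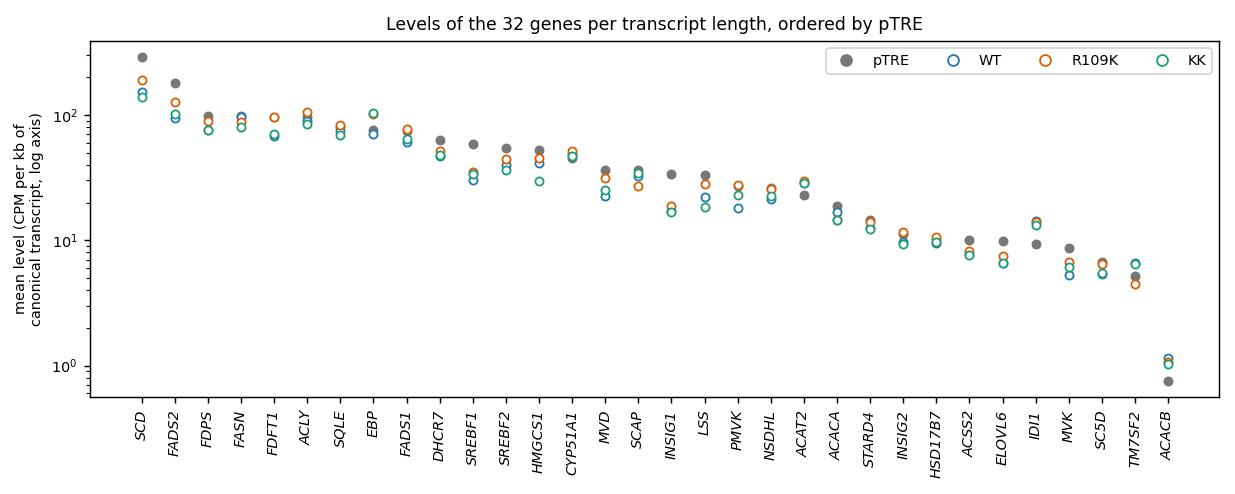
Mean level of each gene in CPM per kb of the canonical transcript (log axis), ordered by the pTRE level, 1 point per line. SCD leads in all 4 lines, with 290.3 in pTRE and 138 in KK, and ACACB is lowest.

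The E2F1 lines were also compared directly. No member was called in any of these comparisons, in which 0.710% of all genes (R109K against WT), 0.0120% (KK against WT) and 0.132% (R109K against KK) were. At an unadjusted p under 0.05 in edgeR, 7, 2 and 6 of the 32 members passed, against 3714, 1415 and 2062 of all 16625 genes. DESeq2 called 0, 0 and 1 member, against 3.35%, 0.0602% and 1.53% of all genes. R109K was above WT for 26 of the 32 genes, with a median log2 difference of 0.16 (0.10 without WT replicate 2), and above KK for 28, with a median of 0.18, against -0.01 and 0.00 over all genes. KK and WT differed by a median of -0.01 (-0.10 without WT replicate 2).

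The gene that DESeq2 called was HMGCS1, which was 0.59 higher in R109K than in KK (95% interval 0.31 to 0.86, adjusted p = 0.0420 in edgeR). LSS was 0.61 higher (0.27 to 0.96, adjusted p = 0.0851). The intervals for INSIG1 ran from -0.23 to 0.48 in R109K against WT and from -0.37 to 0.34 in KK against WT. For SREBF1 they ran from -0.17 to 0.60 and from -0.22 to 0.55. For SCD, R109K was 0.45 above KK (-0.03 to 0.93, adjusted p = 0.444) and 0.30 above WT (-0.18 to 0.78, adjusted p = 0.435). Each of the intervals given for INSIG1, SREBF1 and SCD includes 0. TM7SF2 was 0.54 lower in R109K than in WT (-0.86 to -0.22, adjusted p = 0.0613) and 0.53 lower than in KK (adjusted p = 0.106). ACLY lay above the pTRE mean in every R109K sample and below it in every WT and KK sample, and the differences of 0.24 and 0.32 were not called (adjusted p 0.212 and 0.204).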

How the data were processed

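Poly(A) RNA from 12 samples was sequenced by the authors from directional libraries. Per the labels and the study's methods, reads were trimmed with Trim Galore 0.4.3 and aligned to hg19 with STAR 2.5.1, and the deposited files hold whole read counts per gene and sample with no normalization, with 5 summary lines that were kept out of library sizes and tests. The strand setting of the counting and the gene annotation are not given in the sources used here. The authors tested with DESeq2 1.16.1.

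Counts were fitted in R 4.3.3 with edgeR 4.0.16 (filterByExpr by line, TMM scaling, 1 quasi-likelihood model with a mean per line over all 12 samples, 16625 genes tested). CPM uses the TMM-scaled library. A call needs a Benjamini-Hochberg adjusted p under 0.01 over all genes tested, and the second rule also needs more than 2-fold. The code was tested on simulated data. DESeq2 1.42.0, other scalings, filters, thresholds, sample sets and a replicate block were alternatives. Depth is the 11500537 to 31040903 reads on genes per sample, and no member had so few reads that it was dropped. Gene positions are from GENCODE v44lift37 (GRCh37) and promoters from RefSeq (GRCh38.p14).

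The members, the lists and the tests were chosen with earlier results of these data known. By rule, values of every sample are given for members past 2-fold, for the 2 largest called changes in each role and for SREBF1, SREBF2 and INSIG1. Values of IDI1, SCAP, ELOVL6, TM7SF2 and FASN were added after they were seen. P-values measure the spread between the samples called biological replicates.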

Additional observations from a re-analysis of the deposited data

Results flagged for a closer look

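WT replicate 2 had 58.7% of its reads outside genes, a part of the data that no comparison uses, against 23.6% to 29.6% in the other 11 samples. It was the lowest of the WT samples for 24 of the 32 lipid synthesis genes, and replicate 2 was also the lowest for 21 in pTRE, 19 in R109K and 21 in KK. Without it the WT median was -0.22 in place of -0.29, and the calls of MVK, LSS, SCD and ELOVL6 were lost.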

How the results depend on the processing

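1 named result changed direction: SCAP in KK, not called, went from -0.07 to 0.036 without pTRE replicate 3 (-0.14 to 0.036 over the libraries left out). Of the other results for single members under an alternative, 323 kept their side of the threshold, 65 lost their call and 7 gained one. Members called in WT went from 8 to 4 with only the 6 samples compared, while the share of all genes called went from 26.2% to 20.7%. At an adjusted p under 0.05, 15 members were called in WT and 13 in KK, in place of 8 in each. The share of all genes at that threshold is not given here. Members past 2-fold in WT went from 0 to 1 with no filter on low counts and to 1 with the replicate block, and in KK from 2 to 1 with DESeq2, RLE scaling, at least 10 counts in every sample or only the 6 samples compared, and to 0 with glmTreat against 2-fold. In R109K against KK, 1 member was called with DESeq2 (1.53% of all genes were) and 1 at an adjusted p under 0.05. Leaving out 1 library gave 2 to 9 called in WT (19.0% to 25.3% of all genes). It gave 3 to 7 in KK (17.9% to 21.9%) and 1 to 2 in R109K (10.8% to 12.7%). It gave 0 to 4 past 2-fold in WT and 0 to 2 in KK, and medians of -0.43 to -0.21 in WT, -0.37 to -0.24 in KK and -0.19 to 0.0017 in R109K. The cause was not tested. The replicate block gave 8, 8 and 5 called in WT, KK and R109K (25.8%, 24.4% and 17.3% of all genes). In R109K it added SCD (adjusted p = 0.00320) and FADS2 (0.00536) and lost SCAP (0.0107). Numbers are shared across lines. For each gene, the mean of each line was subtracted from log2 CPM, and what was left was correlated between samples of different lines. That subtraction by itself keeps the average over all pairs near 0. Over all genes, same-numbered samples then correlated at 0.04 on average over 18 pairs (-0.29 to 0.47). Others correlated at -0.02 over 36 pairs (-0.38 to 0.31), and 7 of 12 samples correlated best with their own number. Among the 32 members, replicate 3 was most often the highest and replicate 2 most often the lowest of each line. Whether a number marks an effect shared by the lines was not tested, and the main model has no replicate block. With 3 samples per line, the interval of the 0.45 difference in SCD between R109K and KK still reached -0.03.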

Other observations

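Among 51 other tested genes of the same pathways (transport, elongation, activation of fatty acids, SREBP processing), 17 were called in WT (6 rose, 11 fell), 15 in KK (5 rose, 10 fell) and 11 in R109K (4 rose, 7 fell), by the same edgeR test. That is 33.3%, 29.4% and 21.6% of the list, beside 26.2%, 24.4% and 17.3% of all genes, and the list medians were -0.07, -0.12 and -0.13. ACSL1, which activates long-chain fatty acids, was at 24.5, 26.6 and 25.7 CPM in pTRE, 93.7, 69.4 and 67.6 in WT, 57.7, 53.4 and 46.7 in R109K, and 81.2, 63.1 and 68.4 in KK. It rose by 1.59 (SE 0.14, adjusted p = 8.8e-07) in WT, 1.47 (SE 0.14, adjusted p = 1.8e-06) in KK and 1.04 (SE 0.14, adjusted p = 7.5e-05) in R109K on the log2 scale. ELOVL7, another elongase, rose by 1.36, 1.26 and 1.02 in WT, KK and R109K. ME1, which supplies NADPH for lipid synthesis, was at 57.3, 57.0 and 46.1 CPM in pTRE, 18.3, 20.5 and 20.0 in WT, 25.0, 28.2 and 26.1 in R109K, and 20.9, 21.2 and 19.2 in KK. It fell by 1.45 (SE 0.12, adjusted p = 2.8e-07) in WT, by 1.39 (SE 0.12, adjusted p = 4.0e-07) in KK and by 1.02 (SE 0.12, adjusted p = 1.3e-05) in R109K. The samples of the E2F1 lines did not overlap those of pTRE for these 3 genes, which had the largest called changes of the list in each line.

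MBTPS1, the protease that makes the first cut in SREBPs, was chosen after its values were seen. It fell by 0.66 (SE 0.12, adjusted p = 3.7e-04) in WT, by 0.62 (SE 0.12, adjusted p = 6.4e-04) in KK and by 0.55 (SE 0.12, adjusted p = 0.00224) in R109K.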
